A study of Mus musculus with 6 samples.

Results

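The genes described here are 10 genes of the wound matrix and of pericellular proteolysis, of 43274 genes in the deposited tables. They are Cd44, the hyaluronan receptor, the hyaluronan synthases Has2 and Has3, the matrix genes Fn1, Tnc, Spp1, Thbs1 and Vcan, and the plasminogen activation genes Plau and Plaur. They were picked by function and by their differences between the genotypes in these same libraries, so the values below describe them and give no independent support for their direction. All 10 were found by symbol and all 10 passed the filter on low values, Spp1 and Plaur through the ILK-K5 libraries.

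RNA was sequenced from hair follicle bulge SCs, sorted from mouse skin at postnatal day 21 by FACS for CD34 and high α6 integrin. The 3 control libraries came from mice with 1 floxed and 1 wild-type Ilk allele (ILK +/- in the labels), and the 3 ILK-K5 libraries from mice with both alleles floxed (ILK -/- in the labels). All mice carried Cre recombinase under the keratin 5 promoter, which is active in keratinocytes of the epidermis and its appendages. The strain background was mixed, controls were littermates, and ILK is integrin-linked kinase, an adaptor at integrin adhesions. The labels do not say whether each library is a separate animal, so p-values measure only the spread between these libraries.

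Hyaluronan is a long sugar polymer that synthases in the plasma membrane extrude directly into the space around a cell, where CD44 binds it. Fibronectin, tenascin-C, thrombospondin-1, osteopontin and versican are laid down in skin wounds as a provisional matrix that cells attach to through integrins. The urokinase-type activator encoded by Plau binds its receptor, encoded by Plaur, and converts plasminogen at the cell surface to plasmin, a protease that cuts fibrin and other matrix proteins.

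Of the 10 genes, 5 were called higher in ILK-K5 at an adjusted p of at most 0.05 (limma, Benjamini-Hochberg over 16368 genes), namely Cd44, Fn1, Spp1, Vcan and Plaur, and 0 were called lower. Over all genes tested, 2.93% were called higher and 0.599% lower. The median log2 fold change was 2.64 over the 10 genes and 0.01 over all genes tested. The 3 libraries of one genotype did not overlap with those of the other for any of the 10 genes, with 9 higher and Has2 lower in ILK-K5. Libraries did not overlap for 10.9% of all genes in the higher direction and for 6.95% in the lower direction. Since the genes were chosen with this contrast in view, nothing is read from these shares.

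**Figure D1:**
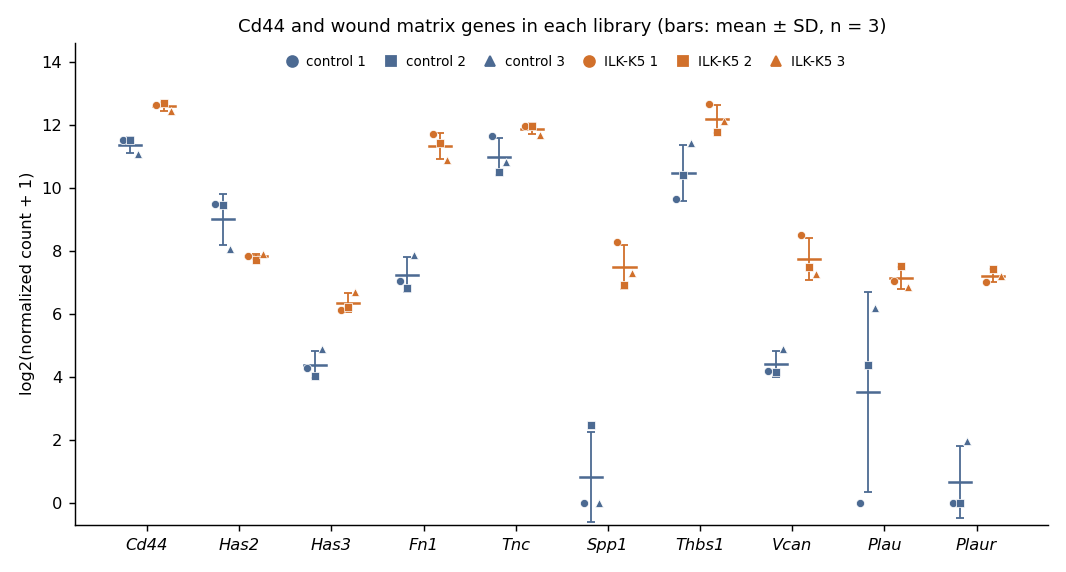
Each point is 1 library, and the vertical axis is log2 of the normalized count plus 1. Horizontal lines and error bars give the mean and SD of 3 libraries, blue for control and orange for ILK-K5. Spp1 and Plaur lie between 0 and 2.48 in control and between 6.90 and 8.27 in ILK-K5, and the only gene whose ILK-K5 points lie below the control points is Has2.

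Sequence upstream of the start was held in the RefSeq promoter table (GRCm38.p6) for 5 of the 10 genes, Cd44, Tnc, Spp1, Vcan and Plaur, in 7 sequences. The 250 bases before the start of the 4 genes called higher among them are given because these are the genes whose levels the results turn on. They are written 5′ to 3′ on the gene's own strand, in lower case, with a match to the AP-1 motif TGANTCA in capitals. They lie at chr2:102901666-102901915 on the minus strand for Cd44, at chr5:104434861-104435110 on the plus strand for the first of the starts of Spp1, at chr13:89742513-89742762 on the minus strand for Vcan, and at chr7:24462233-24462482 on the plus strand for Plaur.
Cd44: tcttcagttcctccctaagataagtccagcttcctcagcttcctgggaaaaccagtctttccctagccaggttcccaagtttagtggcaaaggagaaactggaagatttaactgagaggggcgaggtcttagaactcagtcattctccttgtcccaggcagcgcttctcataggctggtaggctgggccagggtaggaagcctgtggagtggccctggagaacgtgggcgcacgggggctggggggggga
Spp1: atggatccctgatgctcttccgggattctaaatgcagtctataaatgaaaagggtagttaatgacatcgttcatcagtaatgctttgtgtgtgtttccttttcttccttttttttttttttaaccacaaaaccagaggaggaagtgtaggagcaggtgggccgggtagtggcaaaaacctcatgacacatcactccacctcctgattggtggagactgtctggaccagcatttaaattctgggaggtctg
Vcan: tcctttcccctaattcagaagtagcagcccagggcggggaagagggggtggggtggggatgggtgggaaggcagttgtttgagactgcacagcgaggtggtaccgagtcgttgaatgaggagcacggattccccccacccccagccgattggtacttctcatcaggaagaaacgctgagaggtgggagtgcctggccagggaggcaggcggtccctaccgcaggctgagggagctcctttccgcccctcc
Plaur: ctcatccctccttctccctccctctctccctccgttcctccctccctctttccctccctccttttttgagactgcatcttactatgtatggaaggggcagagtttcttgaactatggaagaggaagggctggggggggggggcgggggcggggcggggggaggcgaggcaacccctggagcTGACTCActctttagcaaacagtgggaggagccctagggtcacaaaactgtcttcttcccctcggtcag

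AP-1 is the Fos and Jun family of transcription factors, known for its activity at wound edges. Both strands of each 250-base window were searched. The AP-1 motif was held by 1 of the 7 sequences, that of Plaur, where the match begins 69 bases before the start, and by 6.75% of the 32851 promoters in the table. The TEAD motif GGAATG was held by 0 of 7 and by 12.6% of all promoters, and the Tcf/Lef motif CTTTGAT by 0 of 7 and by 3.21%. A match of letters is a description of the window and no sign of binding.

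Cd44 (ENSMUSG00000005087, chr2:102811141-102901665, minus strand, GRCm38) encodes the main cell surface receptor for hyaluronan, which also binds osteopontin. It was already abundant in control bulge SCs, at 2892, 2919 and 2125 normalized counts in libraries 1 to 3, and stood at 6366, 6540 and 5508 in ILK-K5. The 3 ILK-K5 libraries lay close together, the highest 1.19 times the lowest, and all lay well above the control libraries. The mean was 2.32 times the control mean, with a log2 fold change of 1.23 ± 0.26 (SE) and an adjusted p of 0.0370 (limma). Cd44 lay above 92.9% of the tested genes by its mean FPKM in control and above 97.1% in ILK-K5.

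The call of Cd44 was near the threshold. The log2 fold change stayed between 1.07 and 1.30 when each library was left out in turn, while the adjusted p rose to between 0.0562 and 0.187 (limma), so the call was lost without any 1 of the 6. The adjusted p was 0.0543 with edgeR and 0.000981 with DESeq2. On the recovered reads, edgeR called 4 of the 10 genes higher and 0 lower, against 2.58% and 0.532% of all genes tested, leaving out Cd44, and DESeq2 called 7 higher and Has2 lower, against 4.72% and 1.71%. Cd44 exons are spliced into many variants that bind ligands differently, and counts per gene do not separate them.

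By the pattern over the 6 libraries, the tested genes most like Cd44 were Tubb6, Sppl2a, Msr1, Pitpna and Alox15, with Pearson r from 0.994 to 0.998 on log2 of the normalized count plus 1. Tubb6 is a β-tubulin, Msr1 a scavenger receptor of macrophages and Alox15 a lipoxygenase. These are the highest of 16367 correlations, and the 6 points share the difference between the genotypes, so r is a description only.

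Has2 was lower and Has3 higher in all ILK-K5 libraries, neither past the threshold. Has2, the main synthase of many mesenchymal cells, gave 713, 701 and 267 normalized counts in control and 229, 209 and 237 in ILK-K5. Control libraries 1 and 2 were far above ILK-K5, whereas control library 3 was only slightly above the highest ILK-K5 library. Has2 had a log2 fold change of -1.18 ± 0.40 (SE), with an adjusted p of 0.202 (limma). Without control library 3 it was -1.65 with an adjusted p of 0.0146 (limma), and DESeq2 on all 6 libraries gave an adjusted p of 0.0354. Has2 was not called without any other single library, with an adjusted p of up to 0.530 (limma), nor with edgeR (0.134). Has2os, an antisense gene that covers 4.30% of the exon bases of Has2, held 30.9, 95.8 and 37.0 normalized counts in control and 7.97, 37.0 and 37.0 in ILK-K5.

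Has3 (chr8:106870242-106884566, plus strand) encodes a synthase expressed in keratinocytes. It gave 18.3, 15.2 and 28.3 normalized counts in control and 68.3, 74.0 and 102 in ILK-K5, from 10 to 39 reads a library in control and 60 to 105 in ILK-K5. All ILK-K5 libraries were above all control libraries. Its log2 fold change was 1.96 ± 0.46 (SE), and with an adjusted p of 0.0549 (limma) it was just outside the threshold. The adjusted p was 0.0424 without control library 3 (limma) and 0.00333 with DESeq2. Has3 was not called without any other single library, with an adjusted p of up to 0.335 (limma), nor with edgeR (0.0714). Its exons share 5.52% of their bases with Chtf8, which held 73.0 to 143 normalized counts in control and 51.2 to 105 in ILK-K5.

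On the FPKM scale, which divides by gene length and so allows levels of different genes to be compared, Has2 remained the most abundant synthase in every library. Its share of the summed FPKM of Has1, Has2 and Has3 was 93.6% ± 3.58 (SD, n = 3) among the control libraries and 75.2% ± 1.75 (SD, n = 3) among those of ILK-K5. The ratio of Has3 to Has2 was 0.0171, 0.0144 and 0.0704 in control and 0.198, 0.235 and 0.287 in ILK-K5. That the libraries did not overlap in this ratio follows from Has3 being higher and Has2 lower in every ILK-K5 library. It is therefore no further support for either difference. The summed FPKM of the synthases was 18.5, 17.4 and 7.17 in control and 7.42, 6.55 and 7.75 in ILK-K5. Control library 3 fell within the ILK-K5 range of this sum.

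**Figure D2:**
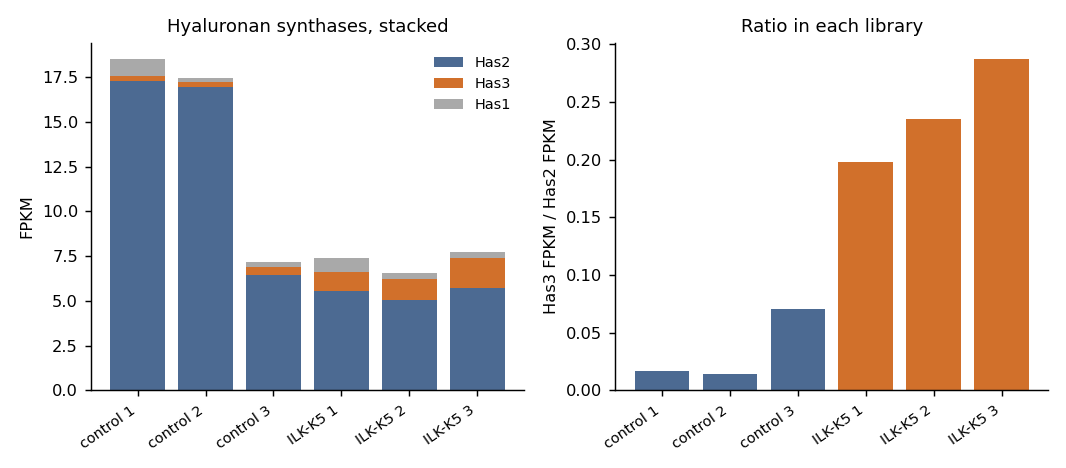
The left panel stacks the FPKM of Has2, Has3 and Has1 in each of the 6 libraries, and the right panel gives the ratio of Has3 FPKM to Has2 FPKM, blue for control and orange for ILK-K5. The sum is 17.4 or higher in control libraries 1 and 2 and between 6.55 and 7.75 in the other libraries, while the ratio is at most 0.0704 in control and at least 0.198 in ILK-K5. The separation of the ratio follows from the order of the libraries for each gene.

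Of the matrix genes, Fn1, Spp1 and Vcan were called higher, and Tnc and Thbs1 were not. Fn1 (ENSMUSG00000026193, chr1:71585520-71653200, minus strand) encodes fibronectin, a glycoprotein with an RGD site that cells bind through α5β1 and αv integrins. It gave 130, 111 and 231 normalized counts in control and 3299, 2746 and 1889 in ILK-K5. The lowest ILK-K5 library was far above the highest control library. The mean was 16.8 times the control mean, with a log2 fold change of 4.10 ± 0.35 (SE) and an adjusted p of 3.68e-04 (limma).

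Spp1 (ENSMUSG00000029304, chr5:104435118-104441050, plus strand) encodes osteopontin, a secreted phosphoprotein that binds integrins and CD44. Control libraries 1 and 3 held no read and control library 2 held 3 reads, whereas the ILK-K5 libraries held 271, 154 and 159 reads, or 309, 119 and 155 normalized counts. Spp1 was thus at or under 3 reads in each control library and well above it in each ILK-K5 library. The pooled ratio of ILK-K5 to control was 187, with a 95% interval of 63.6 to 908 (exact, conditional on the summed reads, counting error only). The ratio of the mean normalized counts, the measure given for Cd44 and Fn1, was 128. The log2 fold change of 6.66 ± 0.81 (SE) had an adjusted p of 0.00214 (limma). Its size depends on the pseudocount of 1, being 8.95 with a pseudocount of 0.1 and 4.89 with one of 5. The predicted gene Gm42793, not in the tables used here, shares 18.8% of the exon bases of Spp1 on the same strand.

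Vcan (ENSMUSG00000021614, chr13:89655312-89742509, minus strand) encodes versican, a large proteoglycan that binds hyaluronan. It gave 17.4, 16.7 and 28.3 normalized counts in control and 357, 177 and 151 in ILK-K5. The ILK-K5 libraries were spread 2.37-fold among themselves and were still all far above control. The mean was 11.0 times the control mean, with a log2 fold change of 3.33 ± 0.46 (SE) and an adjusted p of 0.00397 (limma).

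Tnc and Thbs1 were abundant in both genotypes. Tnc, which encodes tenascin-C, an adhesion-modulating protein of wound edges and of the hair follicle, gave 3164, 1445 and 1789 normalized counts in control and 4013, 3987 and 3275 in ILK-K5. The lowest ILK-K5 library was only just above control library 1. Its log2 fold change was 0.89 ± 0.33 (SE) with an adjusted p of 0.263 (limma), and Tnc was called under none of the 17 alternative settings.

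Thbs1, which encodes thrombospondin-1, a matricellular protein that can activate latent Tgf-β, gave 794, 1346 and 2714 normalized counts in control and 6388, 3468 and 4422 in ILK-K5. The control libraries were spread 3.42-fold, more widely than those of ILK-K5. Thbs1 had a log2 fold change of 1.69 ± 0.44 (SE) with an adjusted p of 0.0836 (limma). Without control library 3, the adjusted p was 0.0142 (limma), and with DESeq2 on all libraries it was 0.0234. Thbs1 was not called without any other single library, with an adjusted p of up to 0.288 (limma), nor with edgeR (0.155).

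Plaur (ENSMUSG00000046223, chr7:24462484-24475968, plus strand), which encodes the urokinase receptor, held no read in control libraries 1 and 2 and 4 reads in control library 3. The ILK-K5 libraries held 112, 221 and 150 reads, or 128, 170 and 146 normalized counts. These lay close together, the highest 1.34 times the lowest. The pooled ratio was 116, with a 95% interval of 45.0 to 427 (exact, conditional on the summed reads, counting error only). The ratio of the mean normalized counts was 153, so the order of Spp1 and Plaur depends on the measure. The log2 fold change was 6.55 ± 0.72 (SE) with an adjusted p of 0.00124 (limma), and it was 8.89 with a pseudocount of 0.1 and 4.71 with one of 5.

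Plau, which encodes urokinase itself, gave 0, 19.8 and 71.1 normalized counts in control and 131, 181 and 113 in ILK-K5. All ILK-K5 libraries were above control, but the control libraries ranged from no read to 98 reads. The log2 fold change of 3.61 ± 1.29 (SE) had the widest error of the 10 genes and an adjusted p of 0.243 (limma). Without control library 3, it was 4.94 with an adjusted p of 0.0472, and without control library 1, which held no read, it was 1.85 with an adjusted p of 0.155 (limma). DESeq2 on all libraries gave 2.21 with an adjusted p of 0.664.

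**Figure D3:**
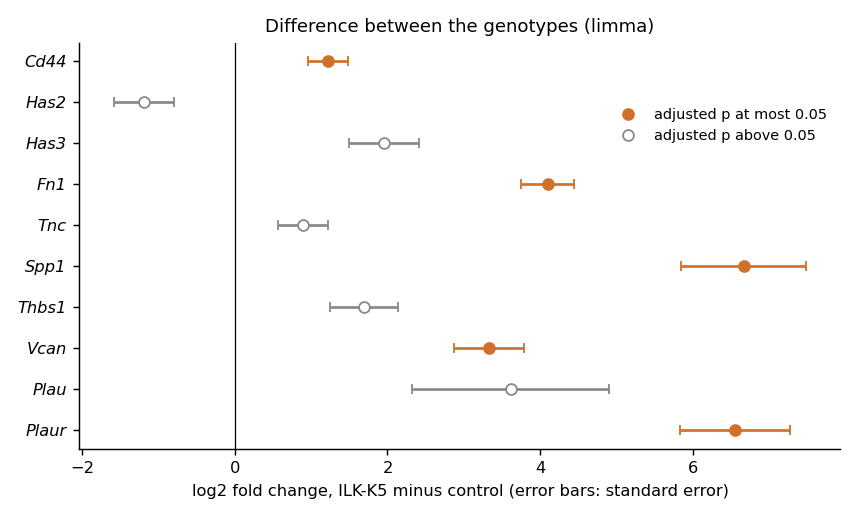
The horizontal axis is the log2 fold change of ILK-K5 against control from limma for each of the 10 genes, with error bars of 1 standard error. Filled orange points have an adjusted p of at most 0.05, and the estimates run from -1.18 for Has2 to 6.66 for Spp1.

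The order of the levels was not the same in both genotypes. In control, mean FPKM ran from Cd44 (40.0) through Tnc (28.1), Thbs1 (27.3), Has2 (13.6), Fn1 (1.38), Plau (1.33), Has3 (0.331), Vcan (0.147) and Spp1 (0.0946) to Plaur (0.0711). Neighbours in this order overlapped between libraries, except Has2 against Fn1 and Has3 against Vcan, where all 3 values of the upper gene exceeded all 3 of the lower. In ILK-K5 the order was Cd44 (92.9), Thbs1 (80.4), Tnc (49.6), Fn1 (23.2), Spp1 (12.1), Plaur (10.9), Plau (6.20), Has2 (5.44), Vcan (1.62) and Has3 (1.31). Here the libraries separated Thbs1 from Tnc, Tnc from Fn1, Plaur from Plau and Has2 from Vcan, and the other neighbours overlapped. Fn1, Spp1, Plaur and Plau stood above Has2 in mean FPKM in ILK-K5, and below it in control, though the ILK-K5 libraries of Plau and Has2 overlapped.

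The libraries of a genotype also differed among themselves. On the log2 scale, control library 3 was the control library nearest to the ILK-K5 mean for 7 of the 10 genes, Has2, Has3, Fn1, Thbs1, Vcan, Plau and Plaur. ILK-K5 library 1 was the highest of the ILK-K5 libraries for 5 genes, Fn1, Tnc, Spp1, Thbs1 and Vcan. Without control library 3, limma called 7 of the 10 genes higher and Has2 lower, against 3.42% and 0.593% of all genes tested in the same fit. Leaving out the control library nearest to ILK-K5 widens the difference of a gene by construction. The calls of Has2, Has3, Thbs1 and Plau gained in this way are therefore no further support.

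In the column headings of the deposited tables, each control library shares a number with 1 ILK-K5 library, and the numbers of libraries 2 and 3 end in the same digits. What the numbers stand for is not given in the sources used here, and setting library 1 apart from libraries 2 and 3 is a reading of these digits. Within libraries 2 and 3 alone (n = 2 a genotype), the log2 fold change was 1.27 for Cd44, -0.96 for Has2, 2.01 for Has3, 3.82 for Fn1, 1.17 for Tnc, 5.86 for Spp1, 1.03 for Thbs1, 2.85 for Vcan, 1.90 for Plau and 6.33 for Plaur. Every gene kept its direction. Fn1, Spp1, Vcan and Plaur were called higher in this fit and 0 were called lower, against 2.47% and 0.434% of all genes tested, and Cd44 had an adjusted p of 0.111 (limma). Library 1 alone has 1 sample a genotype and gives no test. With a term for this split over all 6 libraries, 8 of the 10 genes were called higher and 0 lower, against 5.17% and 1.75% of all genes tested. Beside the 5 genes above, these were Has3, Thbs1 and Plau, with adjusted p of 0.0187, 0.0356 and 0.0474 (limma).

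Genes of the same pathways were taken from 5 lists compiled from textbook knowledge, with 61 of 88 genes tested. Of these, 6 were called higher and 0 lower, against 2.93% and 0.599% of all genes tested, and the remaining 55 were not called. The lists were chosen with earlier results of these data known, so nothing is read from these shares. The called genes were Gusb and Itih5, of 14 tested genes of hyaluronan turnover and binding, and Itga5, Itga9, Cd36 and Cd74, of 20 tested receptors and membrane linkers. None of 12 genes of the provisional and matricellular matrix was called (limma, with 4 at an unadjusted p under 0.05), while edgeR called 0 and DESeq2 called Sparcl1 higher and Tnxb and Ccn2 lower. Likewise, 0 of 10 genes of plasminogen activation and inhibition were called (2 at an unadjusted p under 0.05) and 0 of 5 regulators of Cd44 splicing (0 at an unadjusted p under 0.05). For these 2 lists edgeR called 0, and DESeq2 called Lrp1, a clearance receptor, higher and 0 of the splicing regulators. Sparcl1, Tnxb and Lrp1 were named after their values were seen.

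Among the hyaluronan genes, Itih5, which encodes a heavy chain that is linked to hyaluronan, gave 283, 304 and 559 normalized counts in control and 1422, 1656 and 1207 in ILK-K5. Its log2 fold change was 1.96 ± 0.32 (SE) with an adjusted p of 0.00984 (limma). Gusb, the lysosomal β-glucuronidase, gave 67.5, 158 and 76.9 in control and 338, 389 and 304 in ILK-K5, with a log2 fold change of 1.86 ± 0.38 (SE) and an adjusted p of 0.0290 (limma). Both were separate between the genotypes. Hexa, a lysosomal hexosaminidase gene also among the 3 most abundant of this list, had a log2 fold change of 1.45 with an adjusted p of 0.465 (limma).

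Among the receptors, Itga5, the α chain of the fibronectin receptor α5β1, gave 76.2, 56.3 and 76.9 normalized counts in control and 195, 369 and 255 in ILK-K5. Its log2 fold change was 1.92 ± 0.36 (SE) with an adjusted p of 0.0187 (limma). Itga9, whose α9β1 integrin binds tenascin-C and osteopontin, gave 17.4, 1.52 and 10.2 in control and 176, 126 and 106 in ILK-K5, with a log2 fold change of 4.07 ± 0.73 (SE) and an adjusted p of 0.0166 (limma). Itga9, with a control mean of 9.68, passed the filter on low values through the ILK-K5 libraries. The values of Itga5 and of Itga9 were each separate between the genotypes. Their partner chain Itgb1, named here for its role after its values were seen, was not called, with 2054 to 2583 normalized counts in control, 2214 to 2740 in ILK-K5 and a log2 fold change of 0.18 ± 0.25 (SE).

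Cd36, a scavenger receptor that binds thrombospondin-1, gave 3.86, 4.56 and 2.90 normalized counts in control and 170, 93.3 and 77.0 in ILK-K5. It passed the filter on low values through the ILK-K5 libraries. Its log2 fold change was 4.51 ± 0.56 (SE) with an adjusted p of 0.00219 (limma). Cd74, the MHC class II invariant chain, which pairs with CD44 in a cytokine receptor, gave 0.965, 42.6 and 329 in control and 2529, 11358 and 5978 in ILK-K5, with a log2 fold change of 7.51 ± 1.50 (SE) and an adjusted p of 0.0263 (limma). Cd74 rose in all ILK-K5 libraries above all control libraries, over a very wide control range. The most abundant syndecans of this list, Sdc1 and Sdc4, had log2 fold changes of 0.34 and -0.07 with adjusted p of 0.799 and 0.990 (limma).

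Of the other genes of highest level, Postn, Sparc and Ccn2 of the matrix list stood at 677, 286 and 211 mean FPKM in control and at 552, 210 and 82.3 in ILK-K5. Their adjusted p were 0.899, 0.737 and 0.152 (limma). In the plasminogen list, Anxa2, S100a10 and Serpinb2, which encode the annexin A2 complex that holds plasminogen at the surface and an inhibitor of urokinase, had log2 fold changes of 0.15, -0.39 and -0.97. Their adjusted p ran from 0.715 to 0.951 (limma). The splicing regulators Esrp1, Mbnl1 and Khdrbs1 had log2 fold changes of -0.23, -0.41 and 0.02, with adjusted p from 0.832 to 0.989 (limma).

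**Figure D4:**
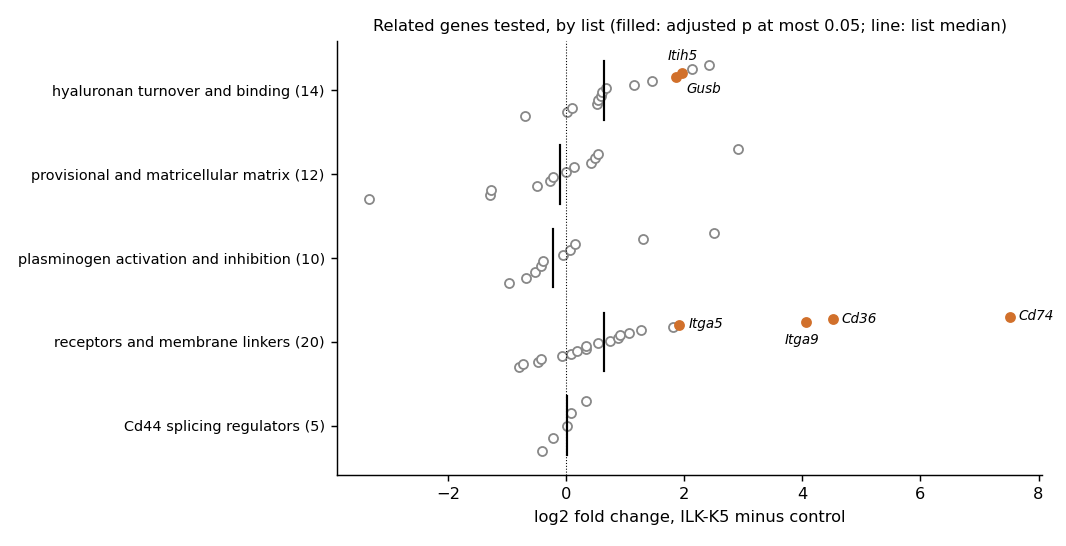
Each point is 1 tested gene of a related list, placed on the horizontal axis by its log2 fold change of ILK-K5 against control, with the number tested in brackets and a vertical line at the list median. Filled orange points are the 6 genes called higher. The medians run from -0.22 for plasminogen activation and inhibition to 0.64 for hyaluronan turnover and binding and for receptors and linkers, against 0.01 for all genes.

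Calls in these lists depended on single libraries and, for Cd74 and Gusb, on the test or scale. On the recovered reads, edgeR called 5 of the 6 genes, without Cd74 (adjusted p = 0.0714). The adjusted p of Cd74 was also 0.0508 with a pseudocount of 0.1 and 0.0532 on FPKM, and that of Gusb was 0.0512 on FPKM (limma). Cd36 was called without each library in turn, whereas the other 5 were not. Without control library 2, the adjusted p was 0.0597 for Itih5, 0.0789 for Itga5 and 0.129 for Cd74 (limma), and without ILK-K5 library 2 it was 0.0607 for Itih5, 0.132 for Itga5, 0.0795 for Itga9, 0.0965 for Cd74 and 0.154 for Gusb. Without ILK-K5 library 1 it was 0.0736 for Itga9, 0.0513 for Cd74 and 0.0929 for Gusb, without ILK-K5 library 3 it was 0.0603 for Itga9, 0.0673 for Cd74, 0.0962 for Itga5 and 0.0999 for Gusb, and without control libraries 1 and 3 in turn it was 0.0566 and 0.0628 for Gusb. Within libraries 2 and 3 alone, the adjusted p was 0.121 for Gusb and 0.0593 for Itih5 (limma).

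Markers of other cell types moved with the genotype. Several of the 10 genes, among them Fn1, Spp1, Thbs1 and Plaur, are also expressed by macrophages, and Fn1, Tnc and Vcan by fibroblasts. Of 15 macrophage markers, 14 were tested and all 14 were called higher. Of these, C1qa, C1qb, C1qc, Mrc1, Cd14, Fcgr1 and Aif1 passed the filter on low values through the ILK-K5 libraries. Their control means were at most 3.49 normalized counts, so they could enter the test only as higher. The summed FPKM of the macrophage markers was 16.0 to 18.4 in control and 696 to 1018 in ILK-K5, and Fcgr1 was at 0 in every control library. Of 9 markers of fibroblasts and dermal papilla, 5 were tested and Col3a1 and Dpt were called higher, Dpt having passed the filter through the ILK-K5 libraries. The sums of this list were 8.66 to 10.5 in control and 20.0 to 31.8 in ILK-K5, with Lum at 0 in control. Not every marker of this list was higher. Pdgfra, Corin and Alpl, named after their values were seen, did not pass the filter on low values. Their libraries overlapped between the genotypes, and the means of Corin and Alpl were lower in ILK-K5. The part of macrophages, fibroblasts and dermal papilla cells in the differences of the 10 genes, Cd44 included, was not tested. Nor was their part tested for the called genes of the related lists, Gusb, Itih5, Itga5, Itga9, Cd36 and Cd74. In bulk RNA, more cells of a type and more RNA of a gene per cell cannot be told apart.

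Of the other lists, neutrophil markers summed to 2.54 to 3.47 FPKM in control and 36.6 to 48.8 in ILK-K5. S100a8 and S100a9 were called higher, and both passed the filter on low values through the ILK-K5 libraries. In ILK-K5, S100a8 held 16.4 to 25.6 FPKM of these sums and S100a9 held 12.8 to 20.2. Ly6g and Elane were at 0 in ILK-K5. In control libraries 1 to 3, Ly6g held 11, 2 and 2 reads and Elane 0, 0 and 1. Langerhans and dendritic cell markers summed to 24.4 to 46.1 and 106 to 121, with Epcam and Itgax called higher. Epcam alone held 22.8 to 40.9 FPKM of these sums in control and 56.5 to 90.8 in ILK-K5. Cd207, Flt3, Zbtb46 and Xcr1 were not called, with adjusted p of 0.148, 0.750, 0.481 and 0.0628 (limma). None of 4 tested T cell markers and none of 3 tested endothelial markers was called (limma, with 2 and 1 at an unadjusted p under 0.05, and 0 with edgeR), while DESeq2 called Cd3g higher and Tek lower, both named after their values were seen. Mitf of 5 tested melanocyte markers and Lor of 7 tested markers of differentiated keratinocytes were called lower. All 11 bulge SC markers were tested, and of these Cd34, a marker of the sort, was called lower, with a log2 fold change of -1.90 and an adjusted p of 0.0240 (limma).

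**Figure D5:**
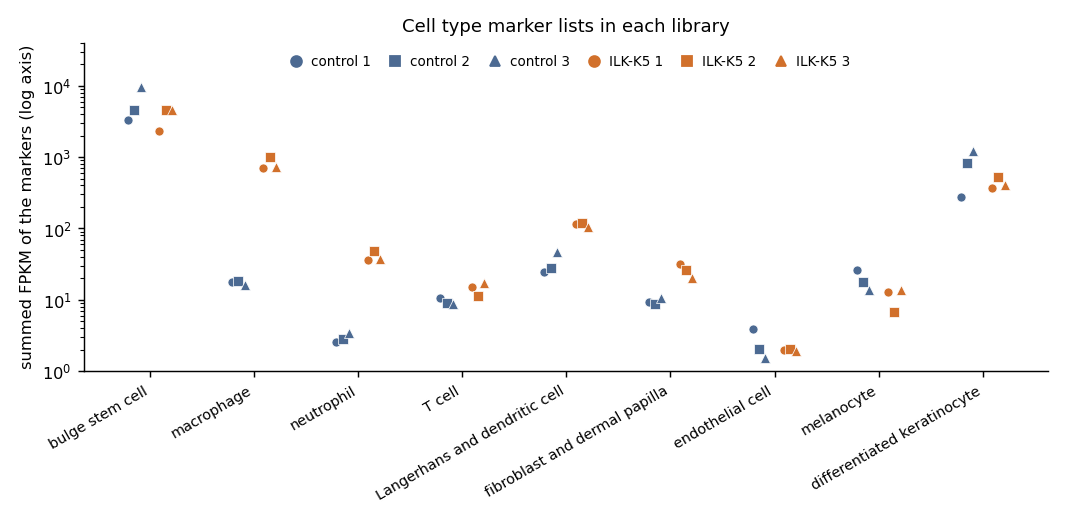
The vertical axis is the summed FPKM of each cell type marker list on a log scale, with 1 point a library, blue for control and orange for ILK-K5. The macrophage sum is 16.0 to 18.4 in control and 696 to 1018 in ILK-K5, while the bulge SC sum overlaps between the genotypes.

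The libraries held 8228019 to 11969072 reads on genes, and 1 read was worth 0.726 to 1.52 normalized counts. Control library 3 was the deepest and had the lowest share of mitochondrial reads, 11.5% against up to 27.6% in the others, and the part of this share in its values was not tested. Ilk gave 10.6, 16.7 and 38.5 normalized counts in control and 14.8, 30.9 and 29.2 in ILK-K5. Since 89.7% of its exon bases are shared with Taf10 and Rrp8 on the other strand and counting by strand is not stated, this level does not check the labels.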

How the data were processed

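Bulge SCs of 3 control and 3 ILK-K5 mouse samples were measured by paired-end RNA-seq. As the study's methods and the submitters' processing notes state, the authors removed adapters and ribosomal reads, aligned to GRCm38 with TopHat2 2.0.14 and Bowtie2 2.2.4 and used DESeq2 1.6.3. The program that counted reads per gene is not given in the sources used here. The signal in the deposited normalized table holds the reads of a gene over 1 size factor a library, set by the authors, and 100% of its values were whole multiples of 1 read (tolerance 0.001), so reads were recovered. The deposited FPKM values equal that signal times 1 constant per gene. Deposited tables of the authors' own comparison (mean, log2 fold change, standard error, Wald statistic, p-values) were not used.

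Gene symbols and positions came from GENCODE M21 for GRCm38, which named 97.5% of 43274 genes. Genotypes were compared with limma 3.58.1 in R 4.3.3 (lmFit, eBayes with trend, two-sided) on log2 of the normalized count plus 1, over 16368 genes whose mean reached 10, with Benjamini-Hochberg adjustment and calls at 0.05. The code was tested on simulated data. No single-gene permutation test was run, because 3 against 3 libraries cannot go below 0.1. Alternatives were pseudocounts of 0.1 and 5, no filter, a minimum mean of 50, TMM factors, edgeR 4.0.16 and DESeq2 1.42.0 on the recovered reads, FPKM plus 0.1, a replicate or column-number term, and fewer libraries. Python 3.11.15, pandas 2.3.3 and matplotlib 3.10.9 served for tables and plots.

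The 10 genes, the related lists and the marker lists were chosen with earlier results of these data known. Named genes were the 10, called genes and the 3 of highest mean FPKM in each related list, marker lists as sums, the 5 genes most correlated with Cd44, and Ilk. Not every gene under this rule is reported here. Others are said to have been named after their values were seen. Sequences came from RefSeq promoters of GRCm38.p6.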

Additional observations from a re-analysis of the deposited data

How the results depend on the processing

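Fn1, Spp1, Vcan and Plaur were called higher under all 17 alternatives, and none of the 10 genes reversed under any of them. The count of members called, 5 higher and 0 lower, became 7 higher and 1 lower (Has2) with DESeq2 and 8 higher with a term that sets library 1 apart by its column-name number, and ran from 4 to 7 higher and from 0 to 1 lower when single libraries were left out. Over all genes tested, 479 higher and 98 lower became 772 and 280 with DESeq2 and 846 and 286 with the column-name number, and ran from 222 to 559 and from 32 to 98 when single libraries were left out. For the related lists, 6 higher and 0 lower became 11 and 2 with DESeq2, 13 and 1 with the column-name number and 1 lower within libraries 2 and 3, and ran from 1 to 8 and from 0 to 2 without single libraries. The ratio of Has3 to Has2 in ILK-K5 was 0.240 on FPKM and 0.362 on reads, which carry no length correction. Cd44 lost its call also without a filter (adjusted p = 0.0644, limma, where more genes are tested) and on FPKM (0.0556, limma), and Has3 gained one at a pseudocount of 5 (0.0486, limma). Where no construction shows the cause of a change, the cause was not tested.

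Same-numbered libraries of the genotypes deviated together with correlations of 0.529, 0.0198 and 0.307. Deviations from a mean of 3 libraries constrain each other, so these values cannot decide whether the numbers are pairs. The main fit took no pairs. With a replicate block, limma called 848 genes higher and 269 lower, 8 of the 10 genes higher (also Has3, Thbs1 and Plau, at adjusted p of 0.0190, 0.0177 and 0.0366), and 12 higher and 1 lower of the related lists. Not every library correlated best with its own number. The fold changes of Spp1, Plaur and Plau are limited by control libraries without a read, 1 or 2 for each gene.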
